A study of Mus musculus with 21 samples.

Results

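The tetraspanins and the Tm4sf (L6) proteins were followed in 2 regions of the newborn mouse brain, the subcommissural organ (SCO) and the hippocampus. The SCO is an ependymal gland above the entrance of the cerebral aqueduct, which secretes into the ventricular fluid. Members were chosen by gene symbol: protein-coding genes named Tspan or Tm4sf with a number, plus Cd9, Cd37, Cd53, Cd63, Cd81, Cd82 and Cd151. No measured value entered that rule, although the family was proposed with earlier results of these libraries known. It took 30 genes of the 31883 in the deposited table, of which 17965 are protein coding. Tspan10 and Tm4sf20, which the symbols would also take, were not analysed here.

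All libraries came from C57BL/6 mice at postnatal day 0 (P0), with no genotype, allele or treatment given in the labels. There were 5 from brain hippocampus and 4 from SCO, while 12 samples from postnatal day 60 mice are not analysed here. The labels do not say whether libraries came from separate animals or from pools, so the spread behind each p-value is that of these samples and may be technical. The hippocampus stands as a comparison tissue of another origin and cell makeup, not as a matched control. Library depth was 35379988 to 151009954 reads. The SCO markers Sspo, Spdef and Car3 were all called higher in SCO by limma, beside 1.71% of all genes tested. Of 9 excitatory neuron markers 8 were called lower, beside 1.34%. Marker lists of other cell types also took a larger mean share of reads in SCO: 15.2 times for habenular and pretectal neurons, 9.49 for choroid plexus, 5.11 for ependyma and motile cilia, 4.80 for red blood cells, 3.20 for lymphoid cells, 2.09 for oligodendrocytes, 1.93 for microglia, 1.90 for endothelium, 1.45 for meninges and 1.31 for mural cells. The choroid plexus share reached 0.316% in SCO replicate 4 and was at most 0.00895% in the other SCO libraries, below the hippocampus maximum of 0.0230%. The lymphoid share reached 0.00509% in SCO replicate 2. In the other SCO libraries it was at most 0.000788%, below the hippocampus maximum of 0.00167%. The oligodendrocyte, meningeal and mural shares overlapped between the tissues. No meningeal or mural marker had an unadjusted limma p under 0.05, and the meningeal median log2 fold change was -0.91. By limma, 2 of 5 habenular and pretectal, 5 of 8 ependymal and 4 of 5 red blood cell markers were called higher, beside the same 1.71%.

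Tetraspanins are small proteins that cross the membrane 4 times and carry a folded large extracellular loop. They bind each other and partners such as integrins, the immunoglobulin proteins EWI-2 (Igsf8) and EWI-F (Ptgfrn) and the protease ADAM10, and so gather them into membrane microdomains. A subgroup with 8 cysteines in the large loop, the TspanC8 proteins, binds ADAM10 and steers its exit from the endoplasmic reticulum and its choice of substrates. CD9, CD63 and CD81 are abundant on extracellular vesicles and serve as their markers. The Tm4sf or L6 proteins have the same number of spans but a different sequence, and form a separate family.

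Among the members higher in SCO, 4 were chosen to show their start sites: Cd82, with the smallest adjusted p, Tspan15, with the highest CG count among the members called, and the neighbours Tm4sf1 and Tm4sf4, which were higher together. Each sequence runs 5′ to 3′ on the gene's own strand, from 250 bases before the start to 50 bases after it, and is taken from RefSeq on GRCm38.p6. Capitals mark CG dinucleotides, the sites of DNA methylation in mammals.
Cd82 (chr2:93462901-93463200, minus strand): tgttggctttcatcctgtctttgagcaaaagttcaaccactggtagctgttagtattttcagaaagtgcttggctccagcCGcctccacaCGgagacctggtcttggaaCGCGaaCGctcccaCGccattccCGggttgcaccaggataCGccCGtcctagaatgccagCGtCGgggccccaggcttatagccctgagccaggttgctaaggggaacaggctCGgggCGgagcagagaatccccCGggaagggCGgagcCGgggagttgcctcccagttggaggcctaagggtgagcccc
Tspan15 (chr10:62231169-62231468, minus strand): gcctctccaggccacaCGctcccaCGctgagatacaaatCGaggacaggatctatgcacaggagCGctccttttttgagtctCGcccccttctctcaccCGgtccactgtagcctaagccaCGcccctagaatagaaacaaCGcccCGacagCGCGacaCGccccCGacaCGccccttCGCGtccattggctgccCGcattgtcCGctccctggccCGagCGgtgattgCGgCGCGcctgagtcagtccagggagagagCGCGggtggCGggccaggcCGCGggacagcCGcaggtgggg
Tm4sf1 (chr3:57301939-57302238, minus strand): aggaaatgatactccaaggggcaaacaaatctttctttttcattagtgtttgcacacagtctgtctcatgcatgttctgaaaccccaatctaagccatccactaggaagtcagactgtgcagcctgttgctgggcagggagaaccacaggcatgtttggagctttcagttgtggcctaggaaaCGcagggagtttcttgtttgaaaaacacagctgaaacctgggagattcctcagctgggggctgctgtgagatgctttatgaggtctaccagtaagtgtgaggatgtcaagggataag
Tm4sf4 (chr3:57425160-57425459, plus strand): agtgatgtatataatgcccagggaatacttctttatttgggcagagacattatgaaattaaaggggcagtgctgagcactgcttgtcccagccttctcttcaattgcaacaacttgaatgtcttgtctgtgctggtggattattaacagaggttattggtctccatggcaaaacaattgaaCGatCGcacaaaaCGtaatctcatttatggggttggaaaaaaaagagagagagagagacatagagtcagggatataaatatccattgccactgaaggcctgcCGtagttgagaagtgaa

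The Tspan15 window held 29 CG dinucleotides, and 12.9% of the 32851 RefSeq promoters of the same length held as many or more. For Cd82 the window of its most upstream start held 16, with 33.0% of promoters at that count or above. Cd82 has 4 annotated starts, and the other three held 15, 11 and 4. By contrast the Tm4sf1 window held 1 and the Tm4sf4 window 4, against a median of 7 over all promoters. Shares of promoters at those counts or above were 94.6% and 68.6%. Of the other members called higher, Cd81 held 23 CG dinucleotides and Tm4sf5 held 7. RefSeq entries were found for 29 of the 30 members, with 39 starts in all. The count is a description of the letters in the window, and methylation was not measured here.

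Of the 30 members, 6 were called higher in SCO and 0 lower by limma, at an adjusted p under 0.05 over the 28150 genes tested. They were Cd82, Tspan15, Tm4sf1, Tm4sf4, Tm4sf5 and Cd81. The background was 1.71% of all genes tested called higher and 1.34% called lower, and nothing is read from the difference, since the family was proposed with these results known. All members entered the test, but Tm4sf4, Tspan1 and Tm4sf19 passed the filter on low values through 1 tissue alone. At an unadjusted p under 0.05, 12 members were higher and 1, Tspan5, was lower, beside 8.33% and 7.14% of all genes tested. The remaining 24 members were not called, and 16 of them had a log2 fold change above 0 and 8 below 0. Over the 30 members the median log2 fold change was 0.59, beside -0.039 over all genes tested.

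For 9 members every SCO library lay above every hippocampus library, beside 4.78% of all genes tested. These were the 6 called genes together with Cd63, Cd53 and Tspan31. No member had all SCO libraries below all hippocampus libraries, and the share of all genes in that direction is not given here. The authors' deposited table gave 10 members an adjusted p under 0.05 in the higher direction, of 26 with a value, beside 6.98% of all genes with one. Its 10 members were the 9 without overlap and Cd37. On the reads recovered from the same values, edgeR's quasi-likelihood test called Cd82, Tspan15 and Tm4sf1, which is 3 members, beside 1.07% of all genes. It called 0 members lower. As RNA came from bulk tissue, more cells of a type and more RNA per cell cannot be told apart for any member.

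**Figure D1:**
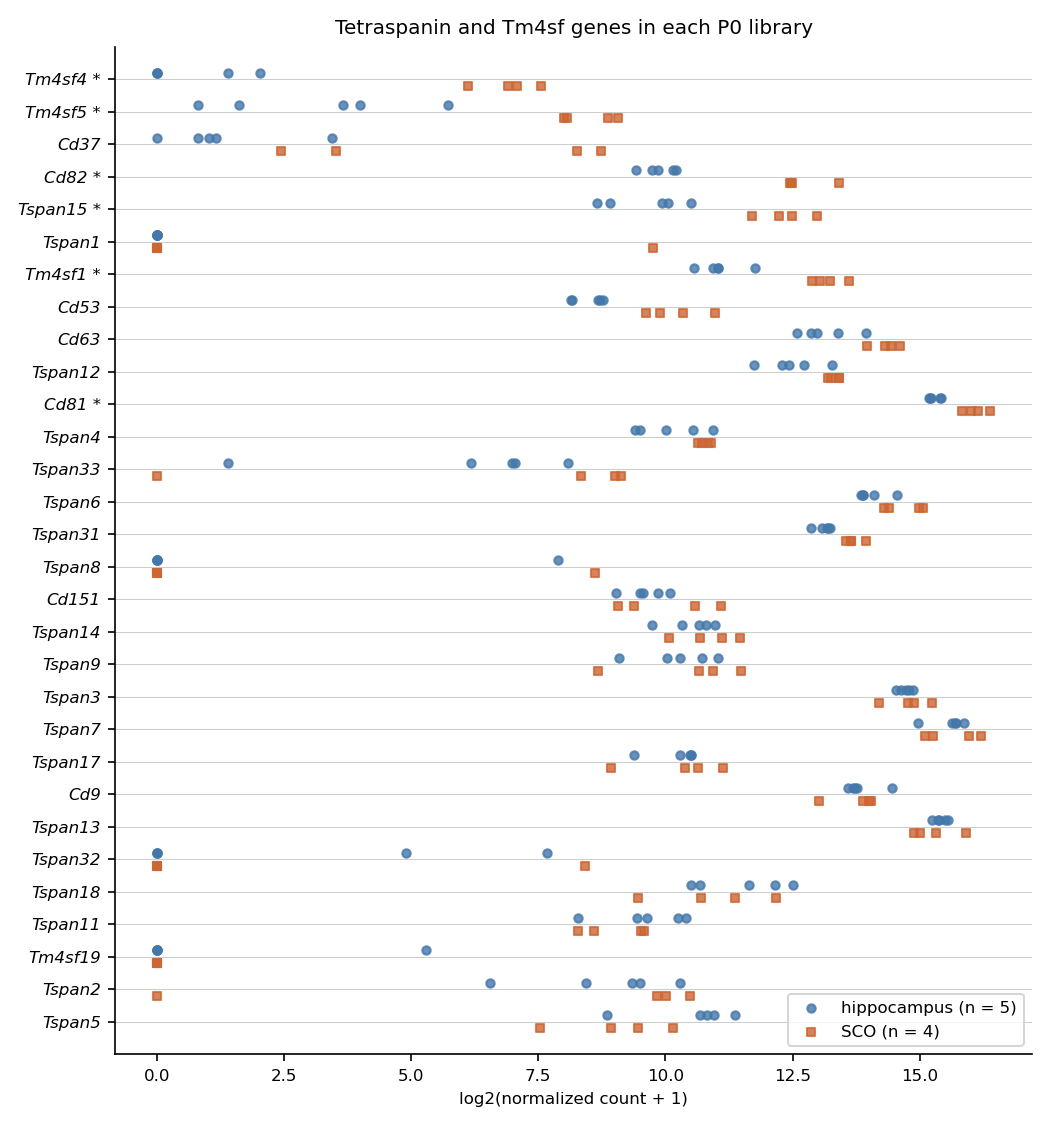
Level of each member in each library as log2(normalized count + 1), ordered by fold change, with 5 hippocampus libraries as blue circles and 4 SCO libraries as orange squares; a star marks the 6 members called by limma. The points of the 2 tissues separate for 9 members, and 8 members have a library at 0.

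**Figure D2:**
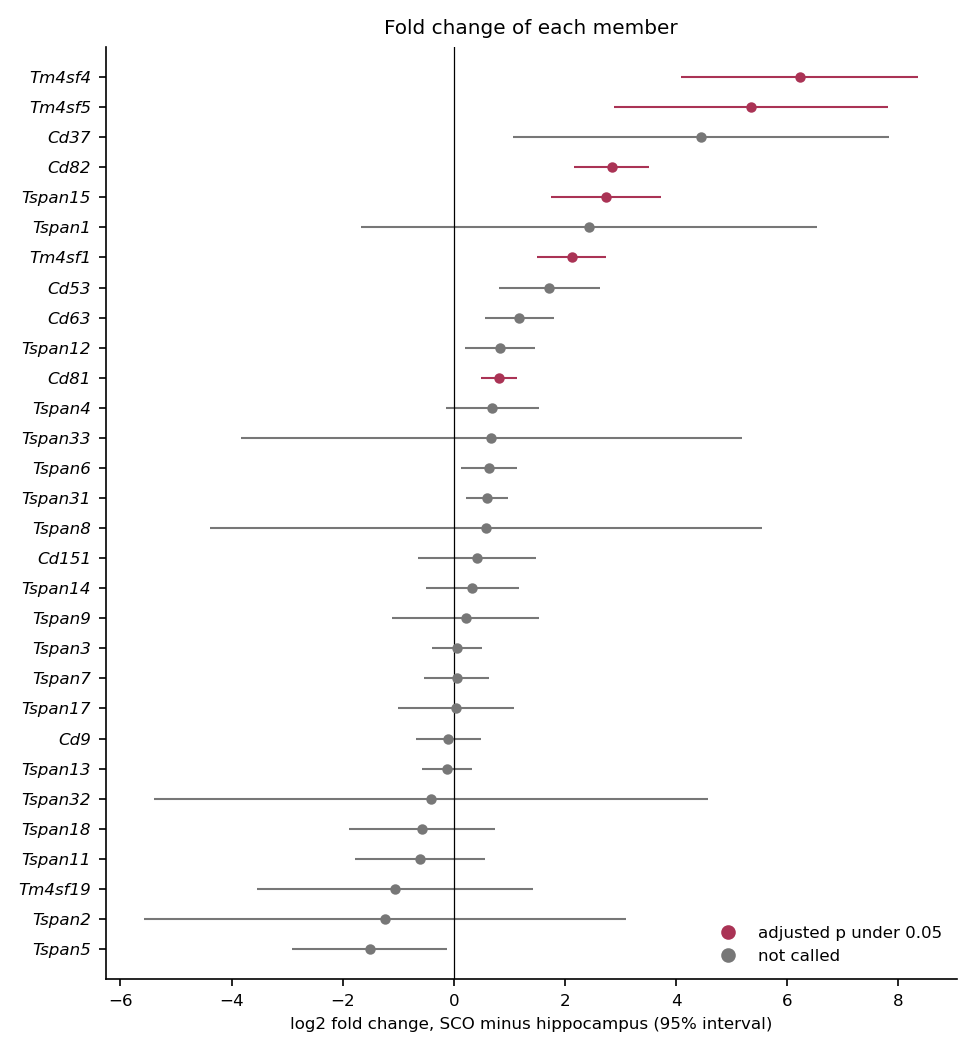
Log2 fold change of each member, SCO minus hippocampus, with its 95% interval from limma, and red for the 6 called members. The intervals are widest for Tspan8, Tspan32, Tspan33 and Tspan2, which have a library at 0.

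Cd82 was the member with the smallest adjusted p and was 7.35 times higher in SCO. Cd82 (KAI1) is a tetraspanin known as a suppressor of metastasis, which restrains the movement of cells on integrins. It lies on chromosome 2, 93419111 to 93463140, minus strand (GRCm38). The normalized counts in hippocampus were 1131, 680.1, 855, 921 and 1189.6, and in SCO 5707, 10987, 5779 and 5614. The lowest SCO library was well above the highest hippocampus library, and SCO replicate 2 stood apart at the top. Means were 956 ± 208 (SD, n = 5) in hippocampus and 7022 ± 2645 (SD, n = 4) in SCO, with a log2 fold change of 2.84 with SE 0.31 (limma, adjusted p = 0.000916). With any 1 library left out, the limma adjusted p stayed between 0.00142 and 0.00444, and edgeR gave 0.00155.

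Next to Cd82 on the same strand lies Tspan18, a tetraspanin of endothelial cells that binds the calcium channel Orai1. The gap is 84605 bp, with 0 protein-coding genes in between. Tspan18 was not called, with 1458 to 5801 normalized counts in hippocampus and 703 to 4652 in SCO and a log2 fold change of -0.57 with SE 0.59 (limma, adjusted p = 0.657). So the neighbours had fold changes of opposite sign, with the interval for Tspan18 running from -1.88 to 0.74.

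Tspan15 was 6.27 times higher in SCO and was the single TspanC8 gene that was called. Its protein binds ADAM10 and promotes the shedding of N-cadherin. The gene lies on chromosome 10, 62185396 to 62231251, minus strand. Hippocampus libraries held 1458, 1057, 402, 482 and 982 normalized counts and SCO libraries 8113, 5714, 3326 and 4828. All SCO libraries were above all hippocampus libraries, with SCO replicate 1 the highest and hippocampus replicates 3 and 4 the lowest. The means were 876 ± 437 (SD, n = 5) and 5495 ± 2005 (SD, n = 4). The log2 fold change was 2.74 with SE 0.45 (limma, adjusted p = 0.0088). Leaving out 1 library at a time gave limma adjusted p values of 0.00987 to 0.029, and edgeR gave 0.0138.

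The other TspanC8 genes did not pass the test. Tspan5, which is known to aid ADAM10 in Notch signalling, read 1799, 464, 1632, 1972 and 2641 in hippocampus and 184, 1129.6, 489 and 704 in SCO. Most hippocampus libraries were above the SCO libraries, but hippocampus replicate 2 fell among them. Tspan5 had a log2 fold change of -1.52 with SE 0.63 (limma, adjusted p = 0.278), the most negative value of any member, and its interval ran from -2.92 to -0.11. Tspan14, another partner of ADAM10, had 1289.5, 850.2, 1772, 2006 and 1609 normalized counts in hippocampus and 1632, 2213, 2812 and 1081 in SCO. The tissues overlapped, with a log2 fold change of 0.33 with SE 0.38 (limma, adjusted p = 0.673) and an interval of -0.51 to 1.18.

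Tspan17 counts were 1241, 1453, 667, 1449 and 1438 in hippocampus and 1601, 2233, 489 and 1328 in SCO. The lowest library in each tissue was replicate 3, and the SCO libraries spread beyond the hippocampus range on both sides. The log2 fold change was 0.039 with SE 0.47 (limma, adjusted p = 0.975). That sign turned with TMM scaling, and the interval was -1.01 to 1.08. Tspan33, known from red cell precursors and B cells, had 271, 1.65, 71.2, 132 and 125 in hippocampus and 0, 558, 516 and 321 in SCO. SCO replicate 1 had no read of it while the other SCO libraries were above every hippocampus library, and the fit gave a log2 fold change of 0.68 with SE 2.03 (limma, adjusted p = 0.891) with an interval of -3.82 to 5.18. Without SCO replicate 1 the log2 fold change of Tspan33 was 2.88, and without hippocampus replicate 2 it was -0.45.

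Levels of different genes were set side by side per kilobase of exon, merged over all annotated transcripts of a gene and not those expressed. By this measure Tspan15 made up 10.4, 9.29, 3.63, 2.97 and 6.07% of the TspanC8 total in the hippocampus libraries. In the SCO libraries it made up 38.2, 22.2, 21.1 and 30.2%. The share of Tspan5 was 13.3 ± 5.24% (SD, n = 5) in hippocampus and 3.53 ± 1.85% (SD, n = 4) in SCO. Tspan17 and Tspan14 had the largest shares per kilobase in hippocampus, at 44.9 and 34.0% on average. In SCO the averages were 34.1% for Tspan17, 31.5% for Tspan14 and 27.9% for Tspan15. These shares restate the counts above and were not tested. The order depends on the exon length used. By normalized counts not divided by length, Tspan5 was highest of the group in hippocampus, at a mean of 1702. Tspan15 was highest in SCO, at 5495.

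**Figure D3:**
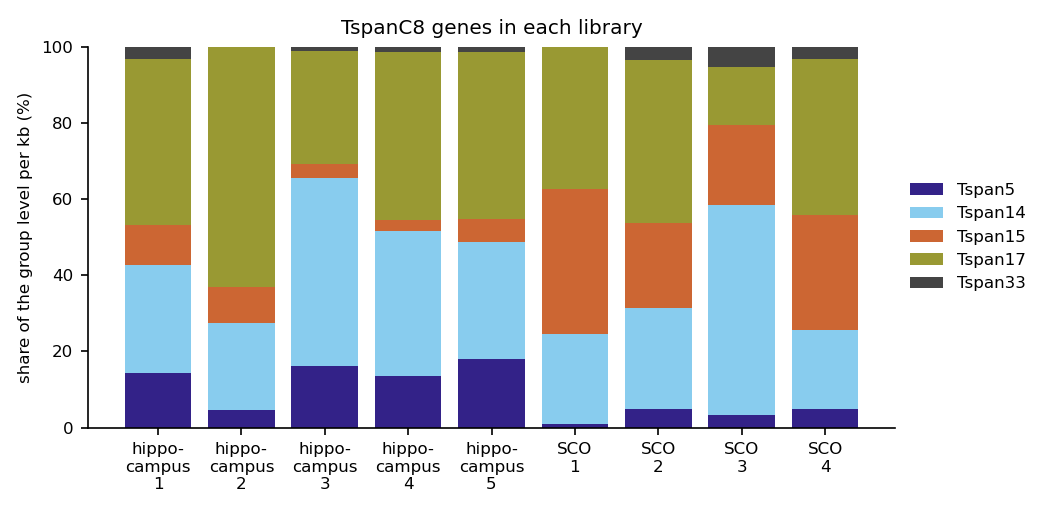
Share of each TspanC8 gene in the summed TspanC8 level per kilobase (percent) in each library, stacked to 100%. Tspan15, in orange, takes 2.97 to 10.4% in the 5 hippocampus libraries and 21.1 to 38.2% in the 4 SCO libraries.

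Adam10 itself, the protease these proteins carry, had 3354 ± 1064 normalized counts (SD, n = 5) in hippocampus and 2581 ± 1345 (SD, n = 4) in SCO. Its log2 fold change was -0.51 with SE 0.41 (limma, adjusted p = 0.596), and it was not called. Of 12 tested genes of the ADAM10 axis, which holds the protease and its substrates such as Notch1, Cdh2 and App, limma called 0 in either direction. At an unadjusted p under 0.05 there were 3, beside 8.33% higher and 7.14% lower over all genes tested. Both edgeR and DESeq2 called 0. The list's median log2 fold change was -0.14, beside -0.039 over all genes tested.

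Within the Tm4sf family, limma called 3 of the 4 genes in the table higher, beside 1.71% of all genes tested, and edgeR called 1, beside 1.07%. Tm4sf1, a surface protein of endothelial cells and many tumours, was 4.28 times higher in SCO and lies on chromosome 3, 57285611 to 57301988, minus strand. It had 1507, 1969, 2097, 2085 and 3451 normalized counts in hippocampus and 7506, 12442, 9606 and 8459 in SCO. The groups were far apart, with hippocampus replicate 5 the nearest to the SCO range. Mean counts were 2222 ± 728 (SD, n = 5) and 9503 ± 2139 (SD, n = 4), with a log2 fold change of 2.12 with SE 0.28 (limma, adjusted p = 0.0028). The limma adjusted p was 0.00279 to 0.0111 with 1 library left out and 0.00484 with edgeR. The summed counts of 9 endothelial markers were 8459 to 12587 in hippocampus and 16399 to 21944 in SCO, a ratio of 1.87. Their sum was highest in SCO replicate 1, where Tm4sf1 was lowest of the SCO libraries. In hippocampus, replicate 5 was highest for both. The part of these markers in the Tm4sf1 difference was not tested. Of those 9 markers limma and edgeR called 0 and DESeq2 called 2, while DESeq2 called 1493 higher and 1215 lower among all genes. At an unadjusted limma p under 0.05 there were 3, beside 8.33% higher and 7.14% lower over all genes tested. For 1 of the 9 markers every SCO library lay above every hippocampus library, beside 4.78% of all genes tested, and 1 was unread in a library.

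Tm4sf4, an L6 protein known from liver and intestine, was all but absent from hippocampus. It lies on chromosome 3, 57425314 to 57441677, plus strand, 123325 bp from Tm4sf1 with 0 protein-coding genes between them, on the opposite strand. Hippocampus libraries read 0, 1.65, 3.10, 0 and 0, which is 4 reads in all, and SCO libraries 68.6, 188, 134 and 119, from 426 reads. Every SCO library held far more than any hippocampus library, 3 of which had no read. The ratio of means was 134, with a 95% counting interval of 52.4 to 492 that covers counting error only. On the log2(normalized count + 1) scale, limma gave 6.23 (SE 0.96, adjusted p = 0.00677), and 0.00809 to 0.0224 with 1 library left out. The call was lost with edgeR, at an adjusted p of 0.105.

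Tm4sf5, another L6 protein, studied mostly in liver tumours, was 23.6 times higher in SCO. Its gene is on chromosome 11, 70505244 to 70511178, plus strand. Counts in hippocampus were 15.0, 11.6, 2.06, 51.6 and 0.761, and in SCO 257, 267, 537 and 468. The lowest SCO library was still several times the highest hippocampus library, replicate 4, which stood above the other four. The log2 fold change was 5.35 with SE 1.11 (limma, adjusted p = 0.0303). Mean counts were 16.2 ± 20.7 (SD, n = 5) and 382 ± 142 (SD, n = 4). This call was the least stable of the 6: without hippocampus replicate 1 or 3, or any 1 SCO replicate, the limma adjusted p rose to between 0.0548 and 0.0914, and edgeR gave 0.116. Tm4sf19 was read in hippocampus replicate 3 alone, at 38.2 normalized counts, and in no SCO library.

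**Figure D4:**
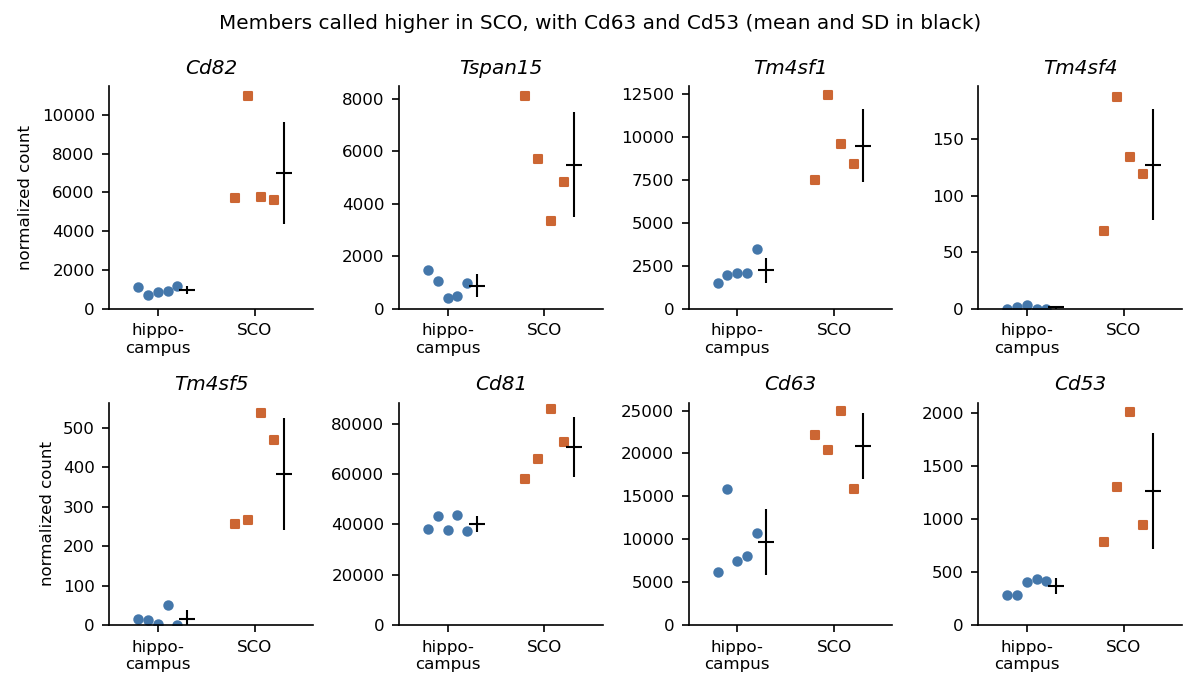
Normalized count in each library for the 6 called members and for Cd63 and Cd53, with 5 hippocampus libraries as blue circles, 4 SCO libraries as orange squares, and the mean and SD in black. Every SCO point lies above every hippocampus point in all 8 panels, and Cd63 is the closest, at 15869 against 15898 normalized counts.

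Cd81 was the most abundant member in SCO per kilobase and rose 1.77-fold there. CD81 is a standard marker of extracellular vesicles. It maps to chromosome 7, 143052739 to 143067934, plus strand. Its normalized counts were 38032, 43120.5, 37649.8, 43871 and 37280.2 in hippocampus and 58155, 66078, 85884 and 72656 in SCO. The hippocampus libraries were tightly grouped and the SCO libraries all lay above them with a wider spread. Means were 39991 ± 3222 (SD, n = 5) and 70693 ± 11735 (SD, n = 4). The log2 fold change was 0.81 with SE 0.14 (limma, adjusted p = 0.0143). Leaving out 1 library gave limma adjusted p values of 0.00809 to 0.0483. edgeR left Cd81 just outside the threshold, at an adjusted p of 0.0518. Its exons share 3.61% of their length with R74862, which was called higher too (log2 fold change 0.91, limma adjusted p = 0.015), and no source used here gives the strand setting of the counting.

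Cd9, the closest relative of Cd81 and essential in the egg for fusion with sperm, did not share its difference in the test. Hippocampus read 13854, 22355, 13172, 12257 and 13631 and SCO 16502, 16873, 15229.6 and 8355. The highest library was hippocampus replicate 2 and the lowest SCO replicate 4, and among the rest every SCO library was above every hippocampus library. Cd9 had a log2 fold change of -0.10 with SE 0.26 (limma, adjusted p = 0.878), with an interval of -0.68 to 0.49. The sign turned without either of those libraries, and without both the log2 fold change was 0.29. Leaving out the highest hippocampus and the lowest SCO library can only raise that value. The difference between Cd81 and Cd9 was itself not tested. Tspan2, known from oligodendrocytes, had 1249.6, 92.4, 722, 348 and 648 normalized counts in hippocampus and 1029, 0, 1437 and 913 in SCO. SCO replicate 2 had no read of Tspan2, while the other SCO libraries were among or above the hippocampus libraries, and the fit gave a log2 fold change of -1.24 with SE 1.96 (limma, adjusted p = 0.771) with an interval of -5.57 to 3.09. Without that library the log2 fold change was 1.29. Summed oligodendrocyte lineage markers in it were 9881 normalized counts, within the SCO range of 4604 to 10458. The last of this subgroup, Tspan8, known from the gut and its tumours, was read in hippocampus replicate 5 (235) and SCO replicate 2 (391) alone, with a log2 fold change of 0.58 with SE 2.24 (limma, adjusted p = 0.918). Without SCO replicate 2 that value was -1.58.

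Cd63, Cd53, Tspan31, Cd37, Tspan1, Tspan8, Tspan32 and Tm4sf19 are described beyond the per-library rule, after their values were seen. Cd63, the tetraspanin of late endosomes and lysosomes, was 2.16 times higher in SCO without passing the test. The counts were 6122, 15869, 7461, 8044 and 10760.1 in hippocampus and 22189, 20447, 24975 and 15898 in SCO. Groups touched without overlapping, since hippocampus replicate 2 read 15869 and SCO replicate 4 read 15898. There was a log2 fold change of 1.18 with SE 0.28 (limma, adjusted p = 0.0529), and without hippocampus replicate 2 the limma adjusted p was 0.00833. The gene lies on chromosome 10, 128900989 to 128912822, plus strand. Tspan31, amplified together with Cdk4 in some sarcomas, had 7486 to 9621 normalized counts in hippocampus and 12088 to 15784 in SCO. Its groups also did not overlap, with a log2 fold change of 0.60 with SE 0.17 (limma, adjusted p = 0.0983). As 29.2% of its exonic length overlaps Cdk4, reads of the 2 genes could not be fully separated without strand.

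The blood cell tetraspanins did not pass the test. Cd53, found on white blood cells and on microglia, was 3.45 times higher in SCO, with 283, 286, 407, 435 and 419.8 in hippocampus and 786, 1308, 2017 and 946 in SCO. Every SCO library was above every hippocampus library, and SCO replicate 3 was the highest. Cd53 had a log2 fold change of 1.72 with SE 0.41 (limma, adjusted p = 0.0529), which fell under the threshold with a pseudocount of 5 and with either other filter. Of 10 microglia and macrophage markers, all read in every library, limma and edgeR called 0 and DESeq2 called 5. Among all genes, DESeq2 called 1493 higher and 1215 lower. At an unadjusted limma p under 0.05 there were 8, beside 8.33% higher and 7.14% lower over all genes tested. For 3 of the 10 markers every SCO library lay above every hippocampus library, beside 4.78% of all genes tested. Their summed counts were 14523 to 24170.4 in hippocampus and 31117 to 44422 in SCO, a ratio of 1.92, and SCO replicate 3 was again the highest. Their part in the Cd53 difference was not tested.

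Cd37, a tetraspanin of B cells and other leucocytes, had 1.25, 9.90, 1.03, 0 and 0.761 in hippocampus and 10.4, 4.43, 422 and 307 in SCO. The level was high in SCO replicates 3 and 4 and close to the hippocampus level in the other two, with a log2 fold change of 4.45 with SE 1.53 (limma, adjusted p = 0.172). Tspan32, a tetraspanin of the blood lineage, was read in hippocampus replicates 3 (28.9) and 4 (204) and SCO replicate 3 (341) alone, and the fit gave a log2 fold change of -0.41 with SE 2.25 (limma, adjusted p = 0.943), a sign that turned with edgeR. The 3 lymphoid and leucocyte markers in the table were each unread in at least 1 library. Their summed counts were 0 to 909 in hippocampus and, in replicate order, 97.0, 2723, 462 and 0 in SCO. The part of these markers in the Cd37 and Tspan32 values was not tested.

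**Figure D5:**
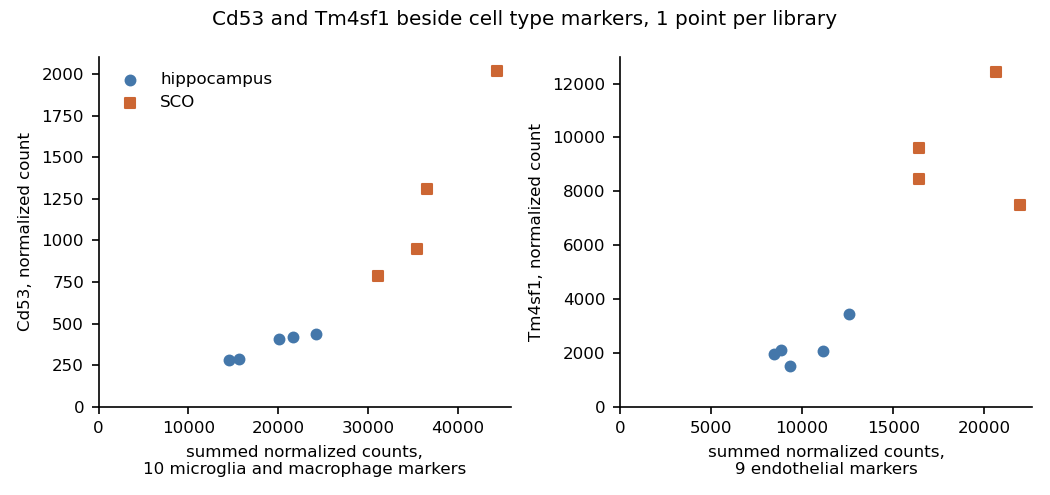
Cd53 against the summed normalized counts of 10 microglia and macrophage markers (left), and Tm4sf1 against those of 9 endothelial markers (right), 1 point per library. In both panels the 4 SCO libraries, in orange, lie above and to the right of the 5 hippocampus libraries, in blue.

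Of the 6 most abundant members per kilobase, Cd81 alone passed the test. In hippocampus Tspan13 led at 17636 normalized counts per kilobase, followed by Cd81 at 13890.5 and Tspan6 at 8404. In SCO the order was Cd81 at 24555, Tspan13 at 16796 and Tspan6 at 13122. The same 3 genes took 54.1% of the members' summed level in hippocampus and 53.8% in SCO. That sum ran from 70922 to 79702 per kilobase in hippocampus and from 94354 to 108319 in SCO, and Cd81 made up 18.8 ± 1.53% (SD, n = 5) and 24.2 ± 3.27% (SD, n = 4) of it. Cd9, Tspan7 and Tspan3 came next in both tissues. Tspan7, linked to X-linked intellectual disability and to AMPA receptor traffic, had 32019 to 60129.6 normalized counts in hippocampus and 35105 to 75377 in SCO, with a log2 fold change of 0.052 with SE 0.26 (limma, adjusted p = 0.939) and an interval of -0.53 to 0.64, and its sign turned with TMM scaling. Tspan3, first described with claudin-11 in oligodendrocytes, had 23783 to 29903 and 18864 to 38608 in the same order, with a log2 fold change of 0.066 with SE 0.20 (limma, adjusted p = 0.894) and an interval of -0.38 to 0.52. Tspan13 had 38853 to 48039 in hippocampus and 30183 to 61915 in SCO, with a log2 fold change of -0.12 with SE 0.21 (limma, adjusted p = 0.783) and an interval of -0.58 to 0.33. The signs of Tspan3 and Tspan13 turned without SCO replicates 1 and 3 respectively, and all 3 intervals lay within 1 of 0 on the log2 scale.

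Tspan6, which acts in vesicle formation and the turnover of amyloid precursor protein, had 14701 to 24006 normalized counts in hippocampus and 20092 to 34187 in SCO. The ranges overlapped, and the log2 fold change was 0.63 with SE 0.23 (limma, adjusted p = 0.197). Tspan12, the co-receptor that strengthens Norrin signalling through Fzd4 in retinal vessels, had 3412 to 9906 in hippocampus and 9412 to 10960.0 in SCO, with a log2 fold change of 0.83 with SE 0.29 (limma, adjusted p = 0.174). Its partners Ndp, which encodes Norrin, and Fzd4 were not called, with log2 fold changes of -0.034 with SE 0.40 (limma, adjusted p = 0.974) and -2.85 with SE 2.36 (limma, adjusted p = 0.599). Fzd4 was unread in 3 libraries.

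Cd151, the partner of laminin-binding integrins, and Tspan4, a protein of migrasomes, lie 3766 bp apart on chromosome 7. Cd151 had 522 to 1091 normalized counts in hippocampus and 536 to 2175 in SCO, and Tspan4 677 to 1966 and 1592 to 1916. Their log2 fold changes were 0.43 and 0.69, with limma adjusted p values of 0.671 and 0.422. Tspan11 and Tspan9, which lie 7418 bp apart on chromosome 6, also overlapped between the tissues. Tspan11 had 311 to 1347 normalized counts in hippocampus and 309.5 to 762 in SCO, and Tspan9 543 to 2094 and 409.7 to 2869, with log2 fold changes of -0.61 and 0.21 and limma adjusted p values of 0.613 and 0.884. The Tspan9 value turned to -0.14 without SCO replicate 2. Tspan9 is known from platelets. Tspan1, a tetraspanin of epithelia, was read in SCO replicate 2 alone, at 862 normalized counts.

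Of 29 tested genes for proteins that bind tetraspanins, limma and edgeR called 0 in either direction and DESeq2 called 5. Over all genes DESeq2 called 1493 higher and 1215 lower. At an unadjusted limma p under 0.05 there were 11, beside 8.33% higher and 7.14% lower over all genes tested. All SCO libraries lay above all hippocampus libraries for 1 gene, beside 4.78% of all genes tested. They lay below for 2, and the share of all genes in that direction is not given here, so nothing is read from that count. The median log2 fold change of this list was 0.17, beside -0.039 over all genes tested. Without hippocampus replicate 2, limma called 2 of them lower, beside 430 genes called lower over all genes in that fit. Igsf8, a major partner of Cd81 and Cd9, had 3465 ± 876 normalized counts (SD, n = 5) in hippocampus and 5727 ± 1669 (SD, n = 4) in SCO, with a log2 fold change of 0.71 with SE 0.27 (limma, adjusted p = 0.234). Its relative Ptgfrn was unread in 3 libraries and not called. The named partners were picked for their known pairing with members described here. Of 3 tested tetraspanins under other names, Upk1a, Prph2 and Rom1, limma, edgeR and DESeq2 called 0, with 0 at an unadjusted p under 0.05.

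The list of vesicle and multivesicular body genes held 27 tested genes. By limma 2 were called higher and 0 lower, beside 1.71% and 1.34% of all genes tested. At an unadjusted limma p under 0.05 there were 7, beside 8.33% higher and 7.14% lower over all genes tested. In either direction edgeR called 1 and DESeq2 called 4. Over all genes edgeR called 300 higher and 203 lower, and DESeq2 1493 and 1215. The list's median log2 fold change was 0.06. Sdc2, a heparan sulphate proteoglycan that binds syntenin, read 2317, 1015, 1280.5, 602 and 2922 in hippocampus and 8428, 12201, 14391 and 10831 in SCO. All SCO libraries were far above all hippocampus libraries, with a log2 fold change of 3.01 with SE 0.44 (limma, adjusted p = 0.00501). Lamp2, a lysosomal membrane protein, had 4691, 2232, 4121, 4461 and 3663 in hippocampus and 8246, 6628, 14154 and 10928 in SCO. The tissues did not overlap there either, with a log2 fold change of 1.37 with SE 0.30 (limma, adjusted p = 0.0375). That call was lost on leaving out any 1 library except hippocampus replicate 2 or SCO replicate 2, and the limma adjusted p ran as high as 0.105.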

How the data were processed

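The deposited table held normalized signal per gene in 9 P0 libraries, which is reads divided by a size factor. Per the file header it also held the authors' log2 fold changes with their standard errors, p-values and a test statistic, which served as a score here only to check the columns. The submitters' processing notes name FastQC, HISAT, HISAT2, featureCounts and DESeq2, with GRCm38. Versions, annotation and strand setting: not given in the sources used here. Per the labels' protocols, RNA came from the RNeasy Micro Kit and libraries from the TruePrep DNA Library Prep Kit V2.

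Normalized counts came out as whole reads for 100% of values, within 1e-06 of a read. The table held 0 columns of samples of another series. Genes whose mean reached 1 normalized count in hippocampus or in SCO were tested with limma 3.58.1 in R 4.3.3 on log2(normalized count + 1), without a covariate, with Benjamini-Hochberg adjustment over all 28150 genes and a threshold of 0.05. For low genes, fold changes on this scale can lie below or above those of edgeR. For Tm4sf4 limma gave 6.23 and edgeR 6.97, and for Tm4sf5 limma gave 5.35 and edgeR 4.51. The limma fit was tested on simulated data. edgeR 4.0.16 and DESeq2 1.42.0 on the recovered reads, TMM scaling, other pseudocounts and filters, and leaving out libraries were alternatives. Gene coordinates and exon lengths are from GENCODE M21 (29 of 30 members matched by versioned identifier, Tspan9 without the version), and promoters from RefSeq on GRCm38.p6.

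The members, lists and tests were chosen with earlier results of these data known. Values in every library are given for called members and for TspanC8, CD9 and CD81 relatives and Tm4sf genes that average 100 normalized counts or more in hippocampus or SCO. From the lists, called genes at that level are named, at most 4 per direction. Other members are given by range. Cell type marker sums are described without a test.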

Additional observations from a re-analysis of the deposited data

Results flagged for a closer look

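Each member's values were screened for a library standing far from the others of its tissue, by the gap to the nearest library over the whole range (limits 0.829 for 4 libraries and 0.71 for 5). Chance marks about 1 in 20 groups of normally distributed values, and 11 of 60 groups were marked. A group read in a single library is always marked, as for Tspan1, Tspan8, Tm4sf19 and, in SCO, Tspan32. A group without a read cannot be marked. The count of marked groups is therefore not read against that rate.

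In SCO replicate 2, Cd82 stood above the other SCO libraries at 10987 normalized counts, against 5779 for the next, and without that library Cd82 was still called. Tspan1 at 862 and Tspan8 at 391 were each read in no other SCO library. SCO replicate 3 alone among the SCO libraries had reads of Tspan32, at 341.

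Among hippocampus libraries, Tm4sf5 was highest in replicate 4 at 51.6, with 15.0 the next. Tspan32 was highest there too, at 204. Replicate 2 was highest for Cd9, at 22355 against 13854 for the next, and for Cd37, at 9.90 against 1.25. Replicate 3 was lowest for Tspan17, at 667, and was the single one to hold Tm4sf19, at 38.2. Tspan8 was read in replicate 5 alone, at 235.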

How the results depend on the processing

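Of the 30 members, 6 were called higher with the settings reported, 3 with edgeR, 10 with DESeq2 and 0 with the replicate number as a block. Over all genes the counts called higher were 481, 300, 1493 and 0 in the same order, so the member counts moved with them. With 1 library left out the count of members was 5 to 7, beside 285 to 647 over all genes. Other pseudocounts, filters and TMM scaling gave 6 to 8 members, beside 412 to 544 over all genes. The count called lower was 0 under every alternative. The block left 1 gene called among all genes, against 859 without it. The labels do not say that shared numbers mark shared animals. Libraries with the same number in the sample titles deviated with correlations of -0.029 to 0.019. The column headers carry other numbers, and 3 and 6 occur there in both tissues. Header 3 joins hippocampus replicate 2 and SCO replicate 2, with a correlation of -0.025. Header 6 joins hippocampus replicate 4 and SCO replicate 3, at 0.057, the highest of any pair. No fit used the header numbers, so a pairing by them was not tested, and the main fit took the libraries as unpaired. The calls of Cd82, Tspan15 and Tm4sf1 were lost under 1 of 19 alternatives, the block. Those of Tm4sf4 and Cd81 were lost under 2 (edgeR and the block), and that of Tm4sf5 under 9.

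Signs turned only in members that were not called. Without hippocampus replicate 2 and SCO replicate 4 together, log2 fold changes were 0.29 for Cd9, -1.03 for Tspan33 and -0.21 for Tspan7. For Cd9 these are the highest hippocampus and the lowest SCO library, so its value could only rise. With TMM scaling the log2 fold changes were -0.025 for Tspan17 and -0.012 for Tspan7. With edgeR they were 0.44 for Tspan2 and 0.84 for Tspan32, and with DESeq2 0.47 for Tspan2. With 1 library left out they ran from -0.20 to 0.14 for Cd9, -0.34 to 0.0096 for Tspan13, -0.25 to 0.48 for Tspan17, -2.21 to 1.29 for Tspan2, -0.087 to 0.26 for Tspan3, -2.52 to 0.88 for Tspan32, -0.45 to 2.88 for Tspan33, -0.14 to 0.23 for Tspan7, -1.58 to 2.15 for Tspan8 and -0.14 to 0.80 for Tspan9. The causes were not tested. With 4 and 5 libraries, 8 members with a library at 0 and depths of 35379988 reads or more, low members stayed imprecise.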
